A study of Mus musculus and Sus scrofa with 12 samples.

Results

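Active enhancers of the mouse forelimb bud were taken as H3K27ac peaks that carried H3K4me1, lacked H3K4me3 and lay away from every start site. They were chosen by the peak calls themselves: an H3K27ac consensus peak had to overlap an H3K4me1 peak by 1 bp or more, overlap no H3K4me3 peak and lie over 1 kb from every annotated RefSeq transcription start site (TSS) of GRCm38. Of 20875 mouse H3K27ac peaks, 4854 (23.3%) met the rule, together covering 15.3 Mb. They made up 48.1% of the 10088 distal H3K27ac peaks, those without H3K4me3 and over 1 kb from a TSS. The other 5234 distal H3K27ac peaks had no H3K4me1 and served as the comparison class. Another class held 43881 distal H3K4me1 peaks without H3K27ac and H3K4me3. The name active enhancer rests on the marks alone, since no reporter or expression measurement belongs to the series.

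The mouse samples were forelimbs of wild-type E11.5 embryos, and the pig samples were forelimbs of wild-type embryos at gestational day 23. Each species was profiled for H3K27ac, H3K4me1 and H3K4me3 by ChIPmentation, which adds sequencing adapters by transposase to chromatin held on the antibody. The labels name 2 samples for each species and mark. The samples were taken from littermates. The deposited data are 1 consensus peak list per species and mark with positions only, so no value per replicate, peak height or depth per sample could be given, and a limb bud holds several cell types whose peaks cannot be told apart. Differences between classes are therefore given as percentage points with 95% Newcombe intervals, which cover counting error over regions and say nothing of the spread between animals.

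H3K4me1 is laid down at enhancers by the MLL3 and MLL4 enzymes and marks silent, poised and active elements alike. H3K27ac is written by the coactivators p300 and CBP and accompanies activity, while H3K4me3 marks promoters. In the limb bud, enhancers often lie far from the genes they control, as does the ZRS enhancer of Shh, and patterning genes tend to have several of them. An element in the intron of a neighbouring gene can act on a gene farther away, so the nearest start site used here names a location and not a target.

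Sequences of active enhancers whose best match in the pig genome lay under both H3K27ac and H3K4me1 are shown first. Whether a match is the orthologous element was not tested. Each is the best aligned stretch, cut to 300 bases at most, printed 5′ to 3′ on the plus strand of GRCm38 (mouse) or as aligned to it in Sscrofa11.1 (pig). Capitals mark short motifs on either strand: CATCTG (an E-box of the kind TWIST and HAND proteins bind), TAATTA (homeodomain), TGACAG (MEIS), ACAAAG (SOX), CTTTGAT (LEF/TCF) and CCAAT (NFY). A capital run is a match of letters and not a measured site. Among the 91 genes of the limb lists that had an active enhancer (3118 of all 21774 coding genes, 14.3%, had at least 1), 8 had one with such a pig counterpart: Tcf7l2, Fzd1, Gli2, Tbx5, Rdh10, Axin2, Twist1 and Gli3. Of all 4854 active enhancers 1233 had a pig match, and 169 of these had both marks there. Whether limb genes differed from this was not tested. The stretch of Tbx5, the T-box factor that starts the forelimb, lies in a Tbx5 intron at chr5:119843440-119843623, and its pig counterpart lies nearest TBX5 at chr14:37783409-37783580 with 77.2% identity over 184 aligned positions. The stretch of Twist1, a bHLH factor of limb mesenchyme, lies 241 kb from its TSS in an intron of Hdac9 at chr12:34200496-34200795, within an alignment of 706 positions at 89.2% identity. The stretches of Gli2 (chr1:119033947-119034246) and Gli3 (chr13:15542235-15542534), the effectors of hedgehog signalling, lie in introns of their own genes. The stretch of Rdh10, which makes the precursor of retinoic acid, lies in an intron of Stau2 at chr1:16249055-16249354. The element mm1629 is an enhancer shown by reporter mice to drive limb expression, and its stretch at chr16:17809794-17809984 matched the pig sequence at chr14:50826012-50826198 near SCARF2 with 89.0% identity.
Tbx5 mouse: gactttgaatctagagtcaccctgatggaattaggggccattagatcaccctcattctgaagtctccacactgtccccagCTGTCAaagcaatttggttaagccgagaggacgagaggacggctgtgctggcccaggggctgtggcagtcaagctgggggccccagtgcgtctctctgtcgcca
Tbx5 pig: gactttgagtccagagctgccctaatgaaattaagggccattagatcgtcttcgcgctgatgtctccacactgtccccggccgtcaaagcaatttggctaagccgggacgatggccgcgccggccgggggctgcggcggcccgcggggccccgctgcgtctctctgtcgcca
mm1629 mouse: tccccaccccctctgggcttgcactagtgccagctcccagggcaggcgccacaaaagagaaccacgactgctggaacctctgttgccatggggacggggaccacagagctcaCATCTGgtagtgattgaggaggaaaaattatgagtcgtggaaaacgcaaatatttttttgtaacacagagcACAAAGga
mm1629 pig: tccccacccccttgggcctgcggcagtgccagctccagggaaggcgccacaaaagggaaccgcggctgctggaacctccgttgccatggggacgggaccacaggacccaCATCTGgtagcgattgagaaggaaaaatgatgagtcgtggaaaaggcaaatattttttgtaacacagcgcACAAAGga
Twist1 mouse: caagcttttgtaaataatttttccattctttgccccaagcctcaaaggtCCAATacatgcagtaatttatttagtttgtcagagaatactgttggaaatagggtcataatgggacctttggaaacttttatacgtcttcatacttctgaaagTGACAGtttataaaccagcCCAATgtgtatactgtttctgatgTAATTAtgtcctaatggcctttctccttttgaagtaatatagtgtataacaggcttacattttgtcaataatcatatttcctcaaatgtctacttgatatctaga
Gli2 mouse: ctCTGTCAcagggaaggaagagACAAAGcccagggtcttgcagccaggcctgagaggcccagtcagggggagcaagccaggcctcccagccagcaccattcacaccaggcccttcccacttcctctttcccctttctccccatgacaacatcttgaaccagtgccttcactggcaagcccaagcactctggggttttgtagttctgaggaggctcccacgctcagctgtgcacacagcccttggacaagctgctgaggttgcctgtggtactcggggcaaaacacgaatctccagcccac
Gli3 mouse: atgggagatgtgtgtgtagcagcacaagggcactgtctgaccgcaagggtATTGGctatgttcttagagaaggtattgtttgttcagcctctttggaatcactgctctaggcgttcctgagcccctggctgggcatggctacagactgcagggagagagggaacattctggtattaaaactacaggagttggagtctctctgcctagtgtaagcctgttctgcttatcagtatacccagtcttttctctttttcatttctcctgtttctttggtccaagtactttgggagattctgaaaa
Rdh10 mouse: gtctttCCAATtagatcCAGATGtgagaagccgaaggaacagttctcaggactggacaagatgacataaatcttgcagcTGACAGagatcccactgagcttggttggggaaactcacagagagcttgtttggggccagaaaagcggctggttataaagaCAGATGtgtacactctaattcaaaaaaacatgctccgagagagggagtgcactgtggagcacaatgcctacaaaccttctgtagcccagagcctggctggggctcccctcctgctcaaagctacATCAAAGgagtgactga

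The mm1629 stretches held CATCTG and ACAAAG in both species, CATCTG starting at position 113 of the mouse and 110 of the pig stretch and ACAAAG at 184 and 180. In the Tbx5 stretch, CTGTCA, the other strand of TGACAG, was present in mouse at position 81, and none of the 25 motifs searched was found in the pig stretch. The Twist1 stretch held CCAAT at positions 50 and 172, the MEIS letters at 153 and TAATTA at 196. The Rdh10 stretch held the E-box letters at 18 and 160, and the letters CTTTGAT on the other strand at 284. Of the stretches not printed, those of Tcf7l2 and Axin2 held none of the 25 motifs. That of Fzd1 held only the TEAD letters GGAATG, on the other strand at 223.

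Active enhancers held nearly all of the reporter-tested enhancers found in distal H3K27ac. The RefSeq annotation lists 620 mouse VISTA elements, DNA fragments that drove a reporter in transgenic mouse embryos, of which 174 were active in the limb. Of the active enhancers, 71 (1.46%, 95% Wilson interval 1.16 to 1.84) overlapped a tested element, against 3 (0.0573%, 0.0195 to 0.168) of the distal H3K27ac peaks without H3K4me1. The difference was 1.41 points (1.08 to 1.79), a 25.5-fold ratio. Elements active in the limb were overlapped by 33 active enhancers and by 2 peaks without H3K4me1, a difference of 0.642 points (0.422 to 0.916). Among distal H3K4me1 peaks without H3K27ac, 217 (0.495%) overlapped a tested element, fewer per peak than active enhancers by 0.968 points (0.659 to 1.35). Active enhancers were wider, with a median of 3149 bp against 2044 bp, but among peaks of 2 to 4 kb the difference was still 1.25 points (0.781 to 1.81). VISTA fragments were often picked for testing by conservation or chromatin marks, and the part this played in the overlap was not tested.

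Seen from the tested elements, 32 of the 174 limb enhancers (18.4%, 13.3 to 24.8) overlapped an active enhancer, against 39 of 446 (8.74%, 6.46 to 11.7) with reporter activity elsewhere only. This difference of 9.65 points had an interval of 3.78 to 16.5. H3K27ac at a promoter or with H3K4me3 also lay on 32 of the limb elements (18.4%, 13.3 to 24.8) and on 50 of the others (11.2%, 8.61 to 14.5). Distal H3K4me1 without H3K27ac lay on 65 limb elements (37.4%) and on 150 of the others (33.6%), a difference of 3.72 points whose interval (-4.47 to 12.2) included 0. Whether the limb excess differed between these classes was not tested. Neither mark was found at 19 limb elements (10.9%) and at 150 of the others (33.6%). Of the elements with activity in the limb alone, 3 of 40 overlapped an active enhancer, and of those in the heart alone 5 of 89 did, shares of 7.50% and 5.62% with wide intervals (2.58 to 19.9 and 2.42 to 12.49).

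**Figure D1:**
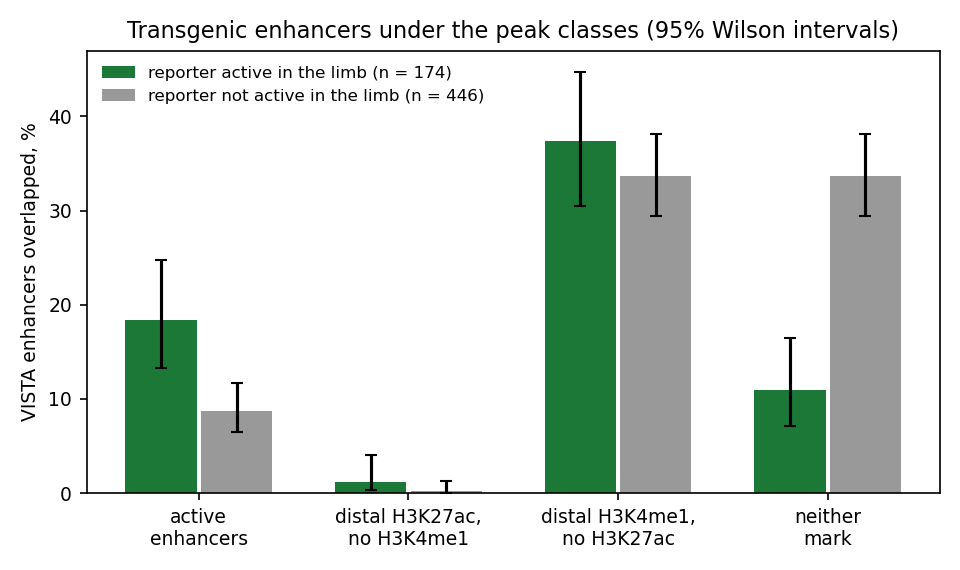
Share of VISTA enhancers (vertical axis, percent) that overlapped each peak class, for the 174 with reporter activity in the limb (green) and the 446 without (grey). Bars are shares and whiskers 95% Wilson intervals. Active enhancers lay on 18.4% and 8.74% of the respective elements, while elements with neither mark made up 10.9% and 33.6%.

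The limb elements under active enhancers named several loci. In reporter embryos mm686 stained the limb in 13 of 13 and mm1505 in 12 of 12, and mm397 did in 12 of 13. The enhancer over mm686, chr7:108796384-108799349, was intergenic and wholly covered by H3K4me1, with both marks at its pig match. The enhancer over mm1505, chr3:101394160-101399890, lay in an intron of Igsf3 and had no pig match, and the one over mm397, chr5:92994745-93002235, was 7491 bp wide. Element mm646 lay near Hhat, which encodes the acyltransferase that fits hedgehog proteins for release, and the pig match of its active enhancer had both marks. Element mm1475 near Dusp7 spanned a pair of active enhancers, chr9:106353981-106356233 and chr9:106357165-106360910. The 3 tested elements under distal H3K27ac without H3K4me1 were mm1684 near Phc2, mm1483 near Chd9 and mm1627 near Ctdspl, and their peaks lay 1046, 935 and 633 bp from the nearest H3K4me1 peak.

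In most active enhancers, H3K4me1 covered the larger part of the H3K27ac peak. As the rule required an overlap, these values describe the members and test nothing. The median share of the H3K27ac peak under H3K4me1 was 93.1%, and 4446 members (91.6%) were covered over at least 50% of their length. H3K4me1 reached over the whole H3K27ac peak in 1421 members (29.3%), over 1 end in 2666 (54.9%), and lay inside it in 728 (15%). It lay at both ends with a gap between in 39. The members wholly covered were the narrowest, with a median of 2270 bp, and those with H3K4me1 inside were the widest, at 4144 bp. In 2982 members (61.4%) the H3K4me1 peak was the wider of the pair.

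**Figure D2:**
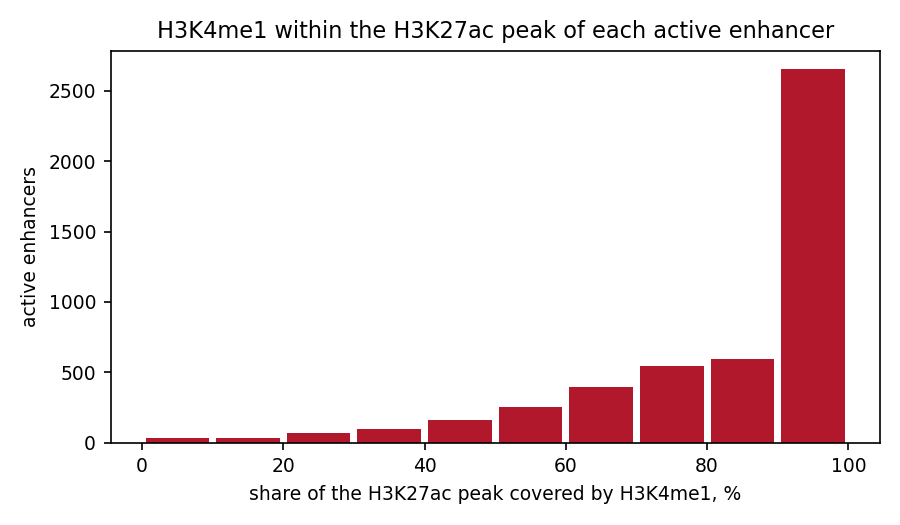
Number of active enhancers (vertical axis) by the share of the H3K27ac peak covered by H3K4me1 (horizontal axis, percent, in bins of 10). The last bin, from 90 to 100%, holds 2651 members (54.6%), and the first holds 37.

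Near the edges of the rule, the members just inside the distance limit lay 1009 bp from the nearest TSS (Spire1) and 1016 bp (Asb6), and the peaks just outside lay at 996 bp (Gm19254) and 994 bp (Tnfrsf17). The smallest overlaps with H3K4me1 were 7 bp, in a member near Acvr1, and 16 bp, in a member near Sec61b. Of the 5234 distal H3K27ac peaks without H3K4me1, the median gap to the nearest H3K4me1 peak was 7994 bp. Only 233 (4.45%) had one within 1 kb, and the closest, near Marcks, missed it by 13 bp.

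In pig, the sequence of active enhancers more often carried the same marks. The central 1 kb of each peak was aligned to the whole pig genome with repeats masked, and 1233 active enhancers (25.4%, 24.2 to 26.6) had a match, against 972 peaks (18.6%, 17.5 to 19.6) without H3K4me1. This difference of 6.83 points (5.22 to 8.45) was 2.92 points, with an interval of -0.399 to 6.22, in windows with under 10% repeats. It was 10.4 points (8.61 to 12.3) with the blastn task of BLAST, which starts from shorter words. The median repeat share of the windows was 15% in active enhancers and 17.9% in the others. At the matched sequence, 188 of the 1233 active enhancers (15.2%, 13.3 to 17.4) had pig H3K27ac, against 44 of 972 (4.53%, 3.39 to 6.02), a difference of 10.7 points (8.30 to 13.1). Pig H3K27ac peaks covered 1.38% of the assembled pig genome. Within peaks of 2 to 4 kb the difference was 10.9 points (7.09 to 14.5).

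Pig H3K4me1 was found at 689 matched active enhancers (55.9%, 53.1 to 58.6) and at 249 matched peaks without mouse H3K4me1 (25.6%, 23 to 28.5), a difference of 30.3 points (26.3 to 34.1). It covered 13.0% of the assembled pig genome. This list rests on a single biological replicate by the design text, and on 2 by the labels. Both pig marks together lay at 169 active enhancers (13.7%) and at 29 of the others (2.98%), H3K4me1 alone of the pair at 520 (42.2%) and 220 (22.6%), and neither at 525 (42.6%) and 708 (72.8%). Pig H3K4me3 was rare at both, at 35 and 18 sequences, with a difference of 0.987 points (-0.333 to 2.26). The gene nearest to the pig match had the same symbol in 895 active enhancers (72.6%) and in 633 of the others (65.1%), a difference of 7.46 points (3.57 to 11.4). Among the 188 active enhancers with pig H3K27ac at the match, 128 (68.1%) had the same symbol. The median alignment was 329 bp long at 77.5% identity in active enhancers and 229 bp at 79.3% in the others.

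**Figure D3:**
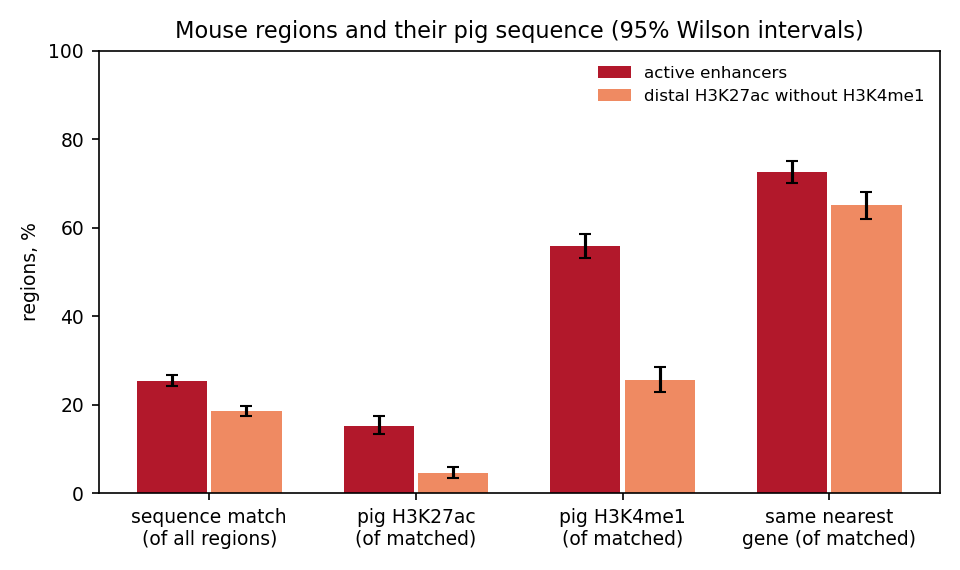
Share of mouse regions (vertical axis, percent) with a match in the pig genome, and share of the matched regions with pig H3K27ac, pig H3K4me1 or the same nearest coding gene, for active enhancers (dark) and distal H3K27ac without H3K4me1 (light). Whiskers are 95% Wilson intervals, and the widest gap is in pig H3K4me1, at 55.9% against 25.6%.

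The share with pig H3K27ac was lowest in the narrowest peaks of both classes. In active enhancers it was 4.88% of the 82 matched peaks under 1 kb, 9.88% of the 172 of 1 to 2 kb, 19.4% of the 294 of 2 to 3 kb, 13.2% of the 326 of 3 to 4 kb and 18.7% of the 359 of 4 kb or more. In peaks without H3K4me1 it was 1.70% of 176, 3.94% of 279, 5.36% of 224, 5.14% of 175 and 7.63% of 118 at the same widths. In each of the 5 width classes the share was higher in active enhancers. No interval was computed per class, and under 1 kb both shares rest on few peaks.

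Active enhancers lay about as far from coding genes as the other distal H3K27ac peaks and nearer to them than distal H3K4me1. The median distance to a coding TSS was 37.5 kb, with quartiles of 14.1 and 99.0 kb. More than 50 kb separated 2040 active enhancers (42.0%) from a coding TSS, against 41.1% of the peaks without H3K4me1, a difference of 0.892 points (-1.03 to 2.82), and 50.5% of the distal H3K4me1 peaks without H3K27ac, a difference of -8.47 points (-9.93 to -7.00). The first of these differences was 5.17 points (2.27 to 8.06) among peaks of 2 to 4 kb. The midpoint fell in an intron of a coding gene in 2291 active enhancers (47.2%), against 47.6% without H3K4me1, and that difference of -0.394 points had an interval of -2.34 to 1.56. It was -4.53 points (-7.28 to -1.77) in the wider 50% of peaks. Exons held 125 active enhancers (2.58%), fewer than the 4.47% without H3K4me1 by 1.9 points, with an interval of the signed difference of -2.62 to -1.18.

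**Figure D4:**
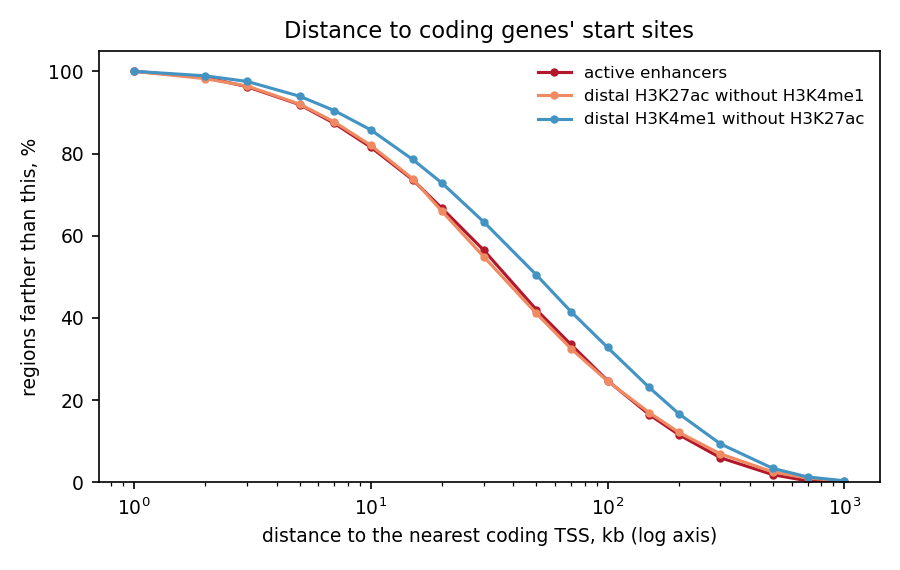
Share of regions (vertical axis, percent) farther from the nearest coding TSS than the distance on the horizontal axis (kb, log axis), for active enhancers, distal H3K27ac without H3K4me1 and distal H3K4me1 without H3K27ac. The curves of both H3K27ac classes run together, passing 50 kb at 42.0% and 41.1%, below the H3K4me1 curve at 50.5%.

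Most active enhancers stood alone. Another lay within 12500 bp of 847 (17.4%), against 14.3% for the peaks without H3K4me1 among themselves, a difference of 3.10 points (1.67 to 4.53). Of the more numerous distal H3K4me1 peaks without H3K27ac, 58.7% had another of their kind within that distance. The difference between the H3K27ac classes was 0.783 points (-0.381 to 1.95) at 5 kb and 0.762 points (-0.659 to 2.20) where H3K4me1 had to cover at least 50% of the peak. There were 390 stretches of 2 or more active enhancers, 57 of 3 or more and 9 of 4 or more. The fullest, chr1:192790848-192824713, held 5 in 33.9 kb between Hhat and Sertad4 and included the tested limb element mm646. Stretches of 4 lay near Pkdcc, a secreted kinase needed for limb bone growth (chr17:83137610-83167882), and near Bcl11b, a zinc-finger factor (chr12:108060544-108092468). Another of 4 had Gas1 and Tut7 as nearest genes (chr13:59999710-60033583). The remaining stretches of 4 lay near Spsb1, the longest of them at 39.4 kb, near Mboat2, Apbb2 and Cacybp, and near Ppif and Zcchc24.

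In sequence, active enhancers were CpG-poor less often than the other distal H3K27ac peaks. The ratio of observed to expected CpG in the central 1 kb was under 0.2 in 2602 active enhancers (53.6%, 52.2 to 55.0), in 62.6% of peaks without H3K4me1 and in 50.0% of distal H3K4me1 peaks without H3K27ac. The difference between the H3K27ac classes was -9.00 points (-10.9 to -7.08). The median ratio was 0.192 in active enhancers, 0.171 without H3K4me1 and 0.158 in windows taken every 50 kb along the genome. Their median GC was 46.8%, against 46.2% and 41.4%.

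Of the 25 motifs searched on both strands of the central 500 bp, 4 were more frequent in active enhancers than in the other distal H3K27ac peaks, 1 was less frequent and 20 had an interval that included 0. The SOX letters ACAAAG were in 41.3% of active enhancers, 39.1% of the others and 39.5% of windows spaced along the genome, a difference of 2.27 points (0.360 to 4.19). The homeodomain letters TAATTA, bound by factors such as LHX and PRRX, were in 11.2%, 9.17% and 16.8%, a difference of 2.04 points (0.856 to 3.22), so that both H3K27ac classes were below the genome windows. The SP/KLF letters GGGCGG were in 7.66%, 5.66% and 4.47%, a difference of 2.01 points (1.04 to 2.99). The letters TTTTATNG, of the kind HOX13 proteins bind, were in 8.53%, 7.30% and 12.9%, a difference of 1.23 points (0.177 to 2.29). The NFY letters CCAAT were in 46.1%, 48.8% and 57.7%, a difference of -2.71 points (-4.66 to -0.762). In the central 1 kb, 6 motifs were more frequent and 0 less frequent, so this difference did not pass there. For CATCTG the shares were 37.7%, 37.7% and 33.7%, with a difference of 0.0241 points (-1.87 to 1.92), and for the GLI letters TGGGTGGTC 0.453%, 0.516% and 0.321%. The part of base composition in these shares was not tested, and the intervals were not adjusted for the number of motifs.

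Each active enhancer was assigned to the coding gene with the nearest TSS within 500 kb, which placed 4763 of them at 3118 genes and left 91 without a gene. Of these genes, 2176 had 1, 544 had 2, 234 had 3, 86 had 4 and 78 had 5 or more. The 20 genes with the most began with Gas1, a co-receptor for hedgehog ligands, with 11 active enhancers over 43.5 kb. They also held Disp1, which releases hedgehog ligands from producing cells, with 8, Map3k7, the TAK1 kinase of TGF-beta and BMP signalling, with 8, and Sox11, a SOX factor of mesenchyme and neurons, with 8. Tcf7l2, a nuclear effector of WNT signalling, Kat6b, a histone acetyltransferase, and Zfp521, a zinc-finger factor of cartilage and bone, had 7 each. Tns1, a tensin of cell adhesions, Dclk1, a doublecortin-like kinase, and Sox5, a SOX factor of cartilage, had 6 each. The rest of the 20 were Aopep and 4930558K02Rik with 10 each, Dcdc2c with 9, Fggy, Zfp516, Ubash3b, Pde4d and Nrsn1 with 7 each, and Slc14a2 and Cdh5 with 6 each. These numbers depend on the limit of the assignment. Within 100 kb of a TSS, 2723 genes had an active enhancer, Aopep and Disp1 had 8 each and Pde4d 7, Tcf7l2 had 5, and Gas1, 4930558K02Rik, Map3k7, Sox11, Fggy, Ubash3b and Slc14a2 had 4 each. Kat6b and Sox5 then had 3 each, Dclk1 had 2, Dcdc2c, Zfp516, Tns1 and Cdh5 had 1 each, and Zfp521 and Nrsn1 had 0. With a peak inside a coding gene given to that gene first, 4930558K02Rik had 2 and Kat6b had 3. Of the 10 enhancers nearest Aopep, 7 lay 348 to 482 kb from a TSS of Ptch1, the hedgehog receptor, which had none by the nearest-TSS rule.

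The 11 enhancers of Gas1 ran from 163 kb on its downstream side (chr13:60008037-60014374) to 210 kb upstream (chr13:60387337-60389595). All lay outside coding genes. Of these 11, 4 had a match in pig, 2 of the 4 fell in pig H3K4me1 and 1 in pig H3K27ac. At Disp1 the 8 enhancers lay within 85.5 kb of a start site, 5 of them in its own introns and 3 outside. At Tcf7l2 the nearest lay 55.9 kb from a TSS, and the one with both pig marks was 133 kb downstream (chr19:56028343-56030891). The gene next to that pig sequence was HABP2.

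In the 5 lists of limb signals, from 44.4% to 70.6% of genes had an active enhancer, beside 14.3% of all coding genes, and their genes also had more room around them. High shares were not particular to active enhancers. A distal H3K27ac peak without H3K4me1 was assigned to 9 of 14 hedgehog, 11 of 17 BMP and 8 of 18 FGF genes. The same held for 10 of 22 WNT and 7 of 17 retinoid and proximal genes, beside 3594 of all 21774 coding genes. For limb transcription factors it was 15 of 36, for cartilage and joint 8 of 16 and for guidance 15 of 20. A gene's territory is the span from the neighbouring coding TSS on its left to that on its right. Among all coding genes the share with an active enhancer was 1.71% for territories under 50 kb, 11.14% for 50 to 200 kb, 29.1% for 200 to 500 kb and 38.9% for 500 kb or more. The median territory was 94.0 kb for all coding genes and 303 kb for the hedgehog list. The part that territory plays in the list counts was not tested.

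**Figure D5:**
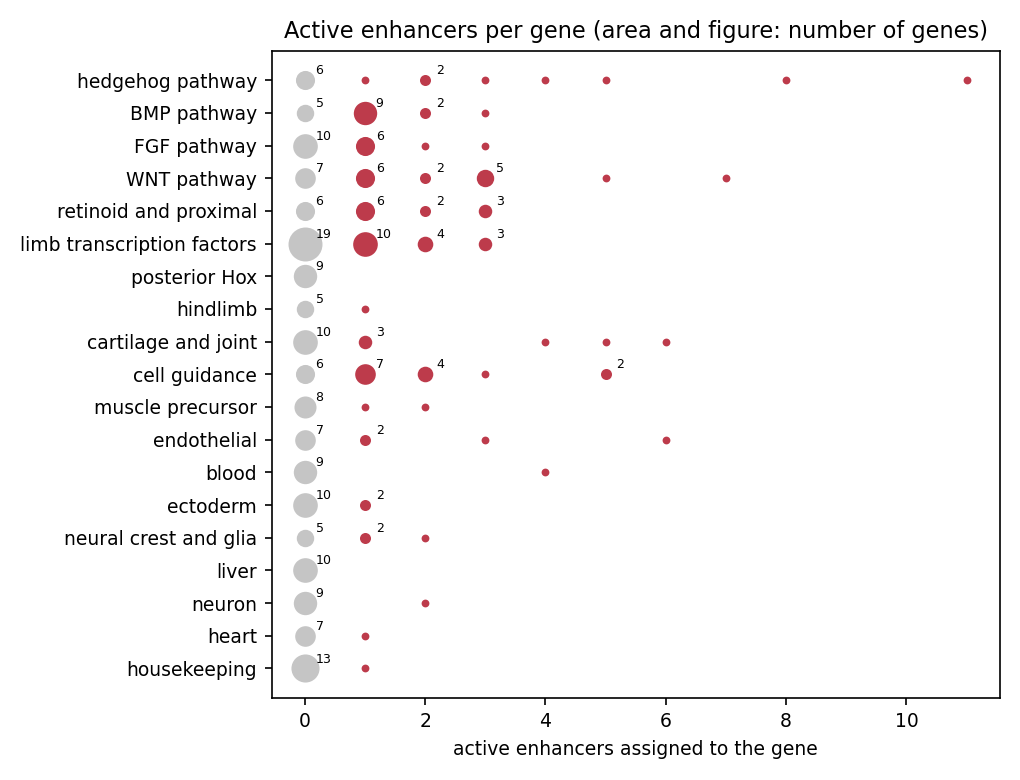
Number of active enhancers assigned to each gene (horizontal axis) in 19 gene lists (rows), with dot area and the figure beside it giving the number of genes at that value and grey for genes with none. The hedgehog list reaches 11 at Gas1, while the 9 posterior Hox genes and the 10 liver genes are all at 0.

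In the hedgehog pathway, which patterns the limb from thumb to little finger, 8 of 14 genes had an active enhancer (57.1%), 36 enhancers in all, with a median of 1.5. Gas1 had 11 and Disp1 had 8, while Cdon and Boc, co-receptors like Gas1, had 5 and 4. Within 100 kb of a TSS the list again counted 8 genes, with 4 active enhancers at Gas1 and 8 at Disp1. Of the transcription factors, Gli2 had 3 and Gli3 had 2. Sufu, an inhibitor of the GLI factors, had 2 and Hhip, an inhibitor that binds the ligands, had 1. Shh itself, its receptor Ptch1, Smo, Gli1 and Kif7 were among those with none. The widest of the Cdon enhancers (chr9:35358064-35366669) was 8606 bp long and lay 54.9 kb upstream.

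In the WNT pathway, 15 of 22 genes (68.2%) had an active enhancer, 37 in all, with a median territory of 546 kb. Tcf7l2 had 7 and the receptor Fzd1 had 5. The ligand Wnt5a, which drives outgrowth, and its receptors Ror1 and Ror2 had 3 each, as did the secreted inhibitors Dkk2 and Sfrp2. An Sfrp2 enhancer of 8828 bp lay 222 kb upstream (chr3:83534659-83543486). A Wnt5a enhancer of 5158 bp lay 262 kb upstream in an intron of Erc2 (chr14:28237766-28242923), and its pig match fell in H3K4me1.

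In the BMP pathway, 12 of 17 genes (70.6%) had an active enhancer, 16 in all, with a median of 1 and a median territory of 359 kb. The intracellular inhibitor Smad7 had 3, while Smad6, also an inhibitor inside the cell, and Bambi, a decoy receptor, had 2 each. The ligands Bmp2, Bmp4, Bmp5 and Bmp7, the receptor Bmpr1b, the antagonist Grem1 and the targets Id2, Id3 and Msx2 had 1 each. The Grem1 enhancer (chr2:113722608-113729043) was 6436 bp wide. In the FGF pathway, 8 of 18 genes (44.4%) had an active enhancer, 11 in all, at a median territory of 321 kb. The receptor Fgfr2 had 3 and the ligand Fgf18 had 2. The ridge ligands Fgf4, Fgf8 and Fgf17 and the mesenchymal ligand Fgf10 had none.

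In the retinoid and proximal list, 11 of 17 genes (64.7%) had an active enhancer, 19 in all, with a median territory of 358 kb, and within 100 kb of a TSS 7 genes had one. Cyp26b1, which clears retinoic acid from the distal limb, Rdh10 and Hic1, a transcriptional repressor, had 3 each. Those of Hic1 lay in introns of Smg6, 18.4, 24.8 and 64.5 kb from Hic1, and all 3 had pig matches with H3K4me1. Among 36 limb transcription factors, 17 (47.2%) had one, 27 in all, with a median territory of 598 kb, and within 100 kb of a TSS 10 had one. Hand2, a bHLH factor of the posterior limb bud, Sall1, a zinc-finger factor, and Tbx5 had 3 each. The Tbx5 enhancers lay 53.9 kb upstream, 5.86 kb downstream in its own intron and 57.0 kb downstream. Twist1 and Twist2 had 2 each, while Prrx1, Lmx1b and Lhx9 were among the 19 with none.

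None of the 9 posterior Hox genes had an active enhancer (interval 0 to 29.9%, beside 14.3% of all coding genes). Assigned to them was 1 distal H3K27ac peak without H3K4me1. Their median territory was 15.4 kb, and of all coding genes with territories under 50 kb 1.71% had an active enhancer. Regulatory regions of the HoxA and HoxD clusters are known to lie in the gene deserts on either side, where another gene's TSS is nearer. The part that either played in this count was not tested. Of 6 hindlimb genes 1 had an active enhancer, Tbx4, with 1 of 261 bp. In the cartilage and joint list, 6 of 16 genes (37.5%, beside 14.3% of all coding genes) had one, 18 in all, with a median territory of 414 kb. Within 100 kb of a TSS 3 genes had one. Sox5 had 6, Sox6 had 5 and Sox9, the factor that starts cartilage, had 4, whereas Col2a1 and Acan, genes of the cartilage matrix, had none. All 5 of Sox6 lay in introns of Sox6, and all 4 of Sox9 were intergenic, 176 to 275 kb upstream. In the guidance list, 14 of 20 genes (70%) had one, 28 in all, with a median territory of 1385 kb, and within 100 kb 9 had one. The chemokine Cxcl12 and the netrin receptor Unc5c led it with 5 each.

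In lists of other cell types that a limb bud can hold, from 10% to 37.5% of genes had an active enhancer, beside 14.3% of all coding genes and again with differing territories. An active enhancer was assigned to 4 of 11 endothelial genes (36.4%, median territory 368 kb), led by Cdh5 with 6 and Erg with 3. It was 2 of 10 for muscle precursors (Lbx1 with 2, Met with 1), 3 of 8 for neural crest and glia, 2 of 12 for ectoderm, and 1 of 10 for blood, which was Ptprc with 4. Of tissues outside the limb, liver had 0 of 10, neuron 1 of 10 and heart 1 of 8. The intervals of the blood, ectoderm, muscle, neural crest and glia, liver, neuron and heart shares all included 14.3%. That of the endothelial share (15.2 to 64.6) lay above it. It included the 29.1% of all coding genes with territories of 200 to 500 kb, the class that holds the endothelial median territory. The part of territory in these shares was not tested. Within 100 kb of a TSS 1 ectoderm gene had an active enhancer. Of 14 housekeeping genes 1 had an active enhancer, at a median territory of 47.8 kb. Of the 6 Cdh5 enhancers, 5 lay between 187 and 475 kb from its TSS, and the sixth at 25 kb.

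The widest active enhancer, at 12651 bp, lay 16.1 kb from Baalc (chr15:38949986-38962636), and H3K4me1 covered 47.3% of it. The next lay in introns of Aopep (11500 bp), Slc14a2 (11381 bp), Trak1 (10408 bp) and Calml4 (9932 bp). The narrowest was 200 bp. The member farthest from a coding TSS lay 2185 kb from Pik3c3 within a noncoding gene. A pair lay 1515 and 1546 kb from Efnb2, an ephrin ligand (chr8:7130680-7132344 and chr8:7099153-7100597), and both were wholly covered by H3K4me1. The others of the 5 farthest lay 1124 kb from D3Ertd751e and 1085 kb from Pcdh20.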

How the data were processed

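The authors deposited 6 peak lists that give each peak's position and nothing else, with no unit of signal or score. By the design text, the chromatin was crosslinked in formaldehyde at 1%, reads of 100 bp were cropped to 50 bp for all mouse libraries and pig H3K4me1, the other pig libraries were sequenced at 50 bp, and broad peaks were called at an irreproducible discovery rate below 0.01. The submitters' processing notes name Bowtie2 2.3.5 and Trimmomatic 0.39, besides deepTools 3.5, SAMtools 1.9 and FastQC 0.11.9. Which program called peaks is not given in the sources used. Depth per sample is unknown.

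Peaks were placed on RefSeq GRCm38.p6 and Sscrofa11.1 in Python 3.11.15 with numpy 2.4.6 and pandas 2.3.3. A TSS was the 5′ end of any annotated gene or transcript, pseudogenes included (89725 positions). No H3K27ac peak on an unplaced scaffold (15) met the rule. Central 1 kb windows with soft-masked repeats were aligned to the pig genome with BLAST 2.17.0 (discontiguous megablast, E value of 1e-10 or lower, best hit by bit score), and a pig mark counted when its peak overlapped the hit. A difference of shares counted as past the threshold when its 95% Newcombe interval lay on 1 side of 0. The computation of shares and intervals was first tested on simulated data.

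The rule for named genes took the 20 with the most active enhancers and up to 5 per list; further list members with 1 or more, or with none, were chosen after their values were seen. Regions named by plan are the 5 widest, the 5 farthest and those at the edges of the rule. Other regions given by position, such as stretches and single enhancers of list genes, were outside this plan and picked from the results. Printed sequences come from limb-list genes whose enhancer matched a pig region with both marks, and from tested limb elements. Not all that qualified are printed: those of Tcf7l2, Fzd1 and Axin2 and of elements such as mm686 were left out. The members and the lists were chosen with earlier results of these data known. The comparison with VISTA elements and the loci named beside them, the search with BLAST's blastn task, the windows with under 10% repeats, the territory classes and the count with annotated transcripts alone were chosen after seeing the data.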

Additional observations from a re-analysis of the deposited data

How the results depend on the processing

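No paired analysis was possible because each deposited list is a consensus over the samples of a mark, so no replicate could be left out or paired either. The count of active enhancers was 4446 with at least 50% of the peak under H3K4me1, 4563 at over 2.5 kb from every TSS, 4928 with TSSs of annotated transcripts alone and 2700 in the wider 50% of all H3K27ac peaks. The difference in the intron share was -4.53 points in the wider 50% of peaks, where its interval left 0. The difference in the share over 50 kb from a TSS was 5.50 points in the wider 50% and 5.17 points in peaks of 2 to 4 kb, with intervals above 0. With the nearest TSS of any gene it was -0.358 points (-1.83 to 1.11). That interval included 0, as did that of the main difference of 0.892 points (-1.03 to 2.82). The clustered share difference had an interval including 0 with H3K4me1 over at least 50% of the peak (0.762 points) and within 5 kb (0.783 points), as did the pig sequence match in windows with under 10% repeats (2.92 points). The cause of these changes was not tested. Under the alternatives run for them, the differences in CpG-poor share (-9.00 points as reported, -6.36 points nearest to 0), pig H3K27ac (8.52 to 13.3 points), tested elements (1.25 to 1.86 points) and tested limb elements (0.583 to 0.871 points) kept their side of 0. With assignment within 100 kb the genes with an active enhancer numbered 2723, and 3043 with the host gene first. With motifs searched in the central 1 kb, 6 were more frequent and 0 less frequent. With no value per replicate, these intervals limit precision over regions alone.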

Other observations

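Few active enhancers lay on the X chromosome: 33 (0.680%, 95% Wilson interval 0.485 to 0.953), with 41 (0.783%) of the distal H3K27ac peaks without H3K4me1 and 459 (1.05%) of the distal H3K4me1 peaks without H3K27ac. The X chromosome held 2.06% of all mouse H3K27ac peaks, 1.20% of H3K4me1 peaks, 3.28% of H3K4me3 peaks and 4.42% of coding genes. Mappability and the sex of the embryos were not tested.

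Besides the VISTA elements, RefSeq lists 19 limb enhancer fragments from single-locus studies, and none overlapped an active enhancer. Of these, 7 lay under distal H3K4me1 without H3K27ac, among them the 4 fragments of the ZRS, the Shh enhancer in an intron of Lmbr1 (chr5:29314497-29315820 for the longest). Another 7 overlapped neither mark, and 5 overlapped a region at a promoter or with H3K4me3. These are overlapping fragments of a few loci and not independent elements.

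Of the 28 active enhancers of guidance genes 16 had a pig match, 8 of these fell in pig H3K4me1 and 0 in pig H3K27ac. Of the 27 of limb transcription factors 12 had a match, 11 fell in pig H3K4me1 and 2 in pig H3K27ac. Of the 36 of hedgehog genes 11 had a match, 7 fell in H3K4me1 and 3 in H3K27ac. Of all 4854 active enhancers 1233 (25.4%) had a match, and of these 55.9% fell in pig H3K4me1 and 15.2% in pig H3K27ac. The numbers per list are small and no difference between lists was tested.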
